A study of Mus musculus with 2 samples.

Results

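Lysosomal hydrolases and cathepsins were followed across the cells of entorhinal cortex in mice treated with N-oleoyl-leucine (OLE, C18:1-Leu) or vehicle. The 37 members were taken by gene symbol from a fixed list, and all 37 were found among the 31053 genes of the count tables. No measured value entered when the list was applied, but the members were chosen with earlier results of these data known. They are 7 cysteine and aspartic cathepsins including legumain, 2 serine peptidases, the cathepsin inhibitor cystatin C, 9 glycosidases, 2 sulfatases, 4 lipid hydrolases, the 2 precursors of the saposins and granulins, 9 proteins of the lysosomal membrane and of cholesterol transport, and the transcription factor gene Tfeb. The data are 2 libraries of single nuclei (10X 3′ chemistry), each from the pooled entorhinal cortex of 5 male APP/PS1 mice. APP/PS1 mice carry human APP and presenilin transgenes with Alzheimer's disease mutations, expressed in this stock from a prion promoter. Mice of the OLE library drank alkaline water with OLE at 25 mg/kg/day and mice of the vehicle library alkaline water with DMSO, from 15 months of age to tissue collection at 18 months. Mice without the transgenes were not analysed here. With 1 library per treatment, no test between treatments can be made, no p-value is given, and differences between the mice of a pool cannot be told apart from an effect of OLE.

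Lysosomes degrade proteins, glycans and lipids taken up by endocytosis or delivered by autophagy. Their hydrolases are made in the endoplasmic reticulum, sorted to the lysosome and, for cathepsins, activated there by cleavage, while cystatin C, made by Cst3, inhibits cysteine cathepsins outside it. Microglia are known for a large lysosomal compartment, and in mice with amyloid plaques a disease-associated state (DAM) has been described in which several of these genes are raised.

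The vehicle library held 6745 nuclei with 70845739 unique molecular identifiers (UMIs) and the OLE library 6173 nuclei with 69485537 UMIs. Clusters named from marker genes gave 334 vehicle and 268 OLE microglia-like nuclei, 120 and 136 astrocyte-like, 588 and 529 oligodendrocyte-like, 101 and 84 oligodendrocyte precursor-like (OPC-like), 333 and 348 GABAergic-like and 1903 and 1844 glutamatergic-like nuclei. A further 2900 vehicle and 2555 OLE nuclei in 4 clusters stayed unnamed, with a median of 2307.5 and 4449 UMIs per nucleus, and of these 1 cluster held 2240 vehicle and 304 OLE nuclei and another 238 and 1727, so that these clusters stood apart by library. The libraries shared 14 cell barcodes. The members were kept out of the genes used for clustering. UMIs of a gene were summed over the nuclei of a class and library and scaled to the total UMIs of that class and library (CPM, the usual counts-per-million unit). The ratio OLE/vehicle is given on the log2 scale for genes whose UMIs in a class, added over the libraries, reached 100. A ratio of 0.322 or more on that scale, up or down, is called past the threshold, and the share of all genes past it stands beside the members' count. All intervals are 95% intervals that cover counting error only.

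A short sequence near start sites is known from lysosomal genes, so its presence in a list of such genes is not an independent finding. The transcription factor TFEB, itself a member, is known to bind the CLEAR element of lysosomal genes, whose core is the E-box CACGTG, a palindrome that reads alike on both strands. RefSeq windows of 300 bases (250 before and 50 after a start site, build GRCm38.p6) were at hand for 34 members, and 14 of these (41.2%) held CACGTG, against 8.09% of 27025 genes. Members had 40 such windows in all, of which 35.0% held it, against 7.15% of 32851 windows. The longer form of CACGTG with T before and A after stood in windows of 5 members (14.7%; 1.12% of all genes) and the full CLEAR palindrome, CACGTG with GT before it and AC after it, in that of Cln3 alone (0.37% of all genes). Each longer form contains the shorter. The windows below show the match in capitals for the members that are described most in what follows, 5′ to 3′ on the strand of the gene. Lamp1 held 4 matches within its last bases before the start site, at -61, -45, -28 and -15, more than any other member, and Cln3 shows the full element.
Lamp1 at -61, chr8:13159088-13159117, plus strand: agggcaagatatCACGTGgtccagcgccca
Lamp1 at -45, chr8:13159104-13159133, plus strand: tggtccagcgccCACGTGatgccgactggc
Lamp1 at -28, chr8:13159121-13159150, plus strand: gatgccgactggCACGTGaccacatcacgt
Lamp1 at -15, chr8:13159134-13159163, plus strand: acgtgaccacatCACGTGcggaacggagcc
Ctsl at -236, chr13:64370739-64370768, minus strand: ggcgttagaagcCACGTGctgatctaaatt
Lgmn at -49, chr12:102439124-102439153, minus strand: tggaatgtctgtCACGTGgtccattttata
Gaa at -140, chr11:119267811-119267840, plus strand: tttctgtgcgatCACGTGtttgactctgac
Cln3 at -121, chr7:126583340-126583369, minus strand: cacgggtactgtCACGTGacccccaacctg
The letters CACGTG were not in the windows of Cst3, Psap, Grn, Ctss, Ctsz or Cd68. Among the other lysosomal gene lists, windows with CACGTG belonged to 6 of 10 sorting receptors, 5 of 15 lysosome regulators and 4 of 13 V-ATPase subunits, but to 1 of 20 other lysosomal enzymes. Of the housekeeping genes, 6 of 23 translated in the cytosol (26.1%) and 2 of 24 translated at the endoplasmic reticulum held it.

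Members were highest in microglia. Of the 35 members that reached 100 UMIs over the 6 classes, 28 had their highest level in microglia-like nuclei in both libraries, while 24.4% of 15235 genes did. For Gla, Tpp1, Lamp1 and Scarb2 among these, the range over the libraries overlapped that of the next class. Some rested on few microglial UMIs, such as Gla with 6 and 10 and Mcoln1 with 18 and 16. The macrophage cathepsin Ctss (ENSMUSG00000038642) was at 642 CPM in vehicle and 939 in OLE microglia-like nuclei, and at 3.33 and 3.67 in glutamatergic-like nuclei, a ratio between the classes of 193 and 256. Ctsb, a broadly expressed cysteine protease, was at 671 and 819 in microglia-like nuclei and followed by oligodendrocyte-like nuclei at 102 and 125. Its levels in the remaining classes lay between 47.3 and 116, and their ranges over the libraries overlapped from each class to the next. Cst3 was the most counted member in microglia-like nuclei, at 1986 and 3110, and in astrocyte-like nuclei, at 789 and 1736. The library values of these classes did not overlap, and glutamatergic-like nuclei had 39.9 and 62.9. Over all nuclei counted, Psap had more UMIs than Cst3, 12087 and 16183 against 9434 and 13927. Cd68, a membrane glycoprotein of macrophages, was at 133 and 217 in microglia-like and 1.70 and 1.87 in glutamatergic-like nuclei. Levels of different genes are not compared here, since counts of nuclear RNA depend on gene length.

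The exceptions followed their own classes. Tfeb (ENSMUSG00000023990) was highest in oligodendrocyte-like nuclei, at 126 in vehicle and 121 in OLE, then microglia-like at 107 and 104, with counting intervals that overlap (111 to 141 and 86.3 to 131 in vehicle), and at 3.80 and 5.00 in glutamatergic-like nuclei. Lipa, the lysosomal acid lipase, was likewise highest in oligodendrocyte-like nuclei at 58.2 and 56.9, as 9.31% of all genes were in both libraries. Its microglia-like levels were 51.7 and 46.2, with counting intervals that overlap (48.5 to 69.2 and 37.7 to 69.2 in vehicle). Gaa, the acid alpha-glucosidase that degrades glycogen, was highest in GABAergic-like nuclei at 68.4 and 98.0 (7.34% of all genes). In vehicle its interval there, 62.4 to 74.8, overlapped the microglia-like one, 42.6 to 75.7. Tmem106b, a lysosomal membrane protein, was highest in astrocyte-like nuclei at 60.1 and 68.6 (10.4% of all genes), although in vehicle the microglia-like level of 59.8 was nearly as high. For Arsa, Smpd1 and Npc1 the class with the highest level differed between the libraries. No member was highest in glutamatergic-like (9.2% of all genes) or OPC-like nuclei (5.95%) in both libraries.

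**Figure D1:**
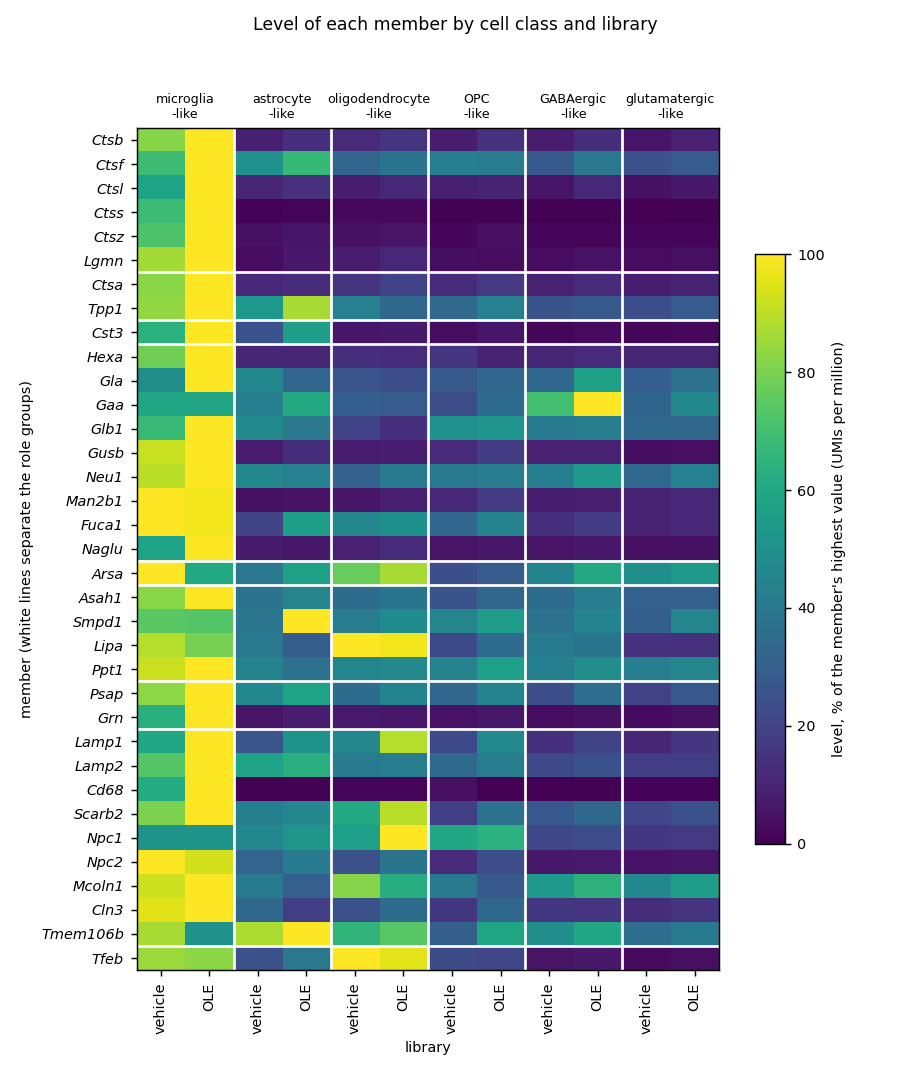
Level of 35 members (rows, grouped by role) in 6 cell classes, with a vehicle and an OLE column for each class. Values are a percent of the member's own highest value in CPM. Ctsd and Sgsh, under 100 UMIs over the 6 classes, are left out. For 28 members the microglia-like column is the brightest within each library, while Gaa, Lipa, Tmem106b and Tfeb are brightest in other classes.

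Ctsd and Sgsh were too sparse to compare. Ctsd, the aspartic cathepsin, had 20 UMIs in vehicle and 31 in OLE over all classes, of which 8 and 10 were in microglia-like nuclei. The gene overlaps Gm49369 on the same strand (GENCODE vM21), so its count is uncertain. Sgsh, the heparan N-sulfatase, had 69 and 70 UMIs.

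In microglia-like nuclei most members were higher in the OLE library. Of 24 members with at least 100 UMIs, 20 were above and 4 below the vehicle level, with a median log2 ratio of 0.29 (all 3653 genes: -0.02). Of these 24, 10 (41.7%) were past the threshold toward higher in OLE, while 9.39% of all genes were, and 0 toward lower, while 9.66% of all genes were. All members together made up 8280 CPM in vehicle and 11049 in OLE, a log2 ratio of 0.42 (0.37 to 0.46), and without Cst3 6295 and 7939, a log2 ratio of 0.33 (0.28 to 0.39). The 13 microglial markers summed to 9721 and 11221 CPM in this class, a log2 ratio of 0.21 (0.16 to 0.25). In the other classes their own summed markers had 0.18 for oligodendrocyte-like, 0.09 for astrocyte-like and 0.06 for OPC-like nuclei. For glutamatergic-like and GABAergic-like nuclei they had 0.006 and -0.08. The part of such shifts in the members' values was not tested. The other 13 members had fewer than 100 UMIs in this class. Among these, Tmem106b had 52 and 25 UMIs, a log2 ratio of -0.77 (-1.52 to -0.06). Naglu had 36 and 51 UMIs, a log2 ratio of 0.79 (0.14 to 1.44), and the intervals of the rest held 0.

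Among the cathepsins, Ctsl (ENSMUSG00000021477), a cysteine endopeptidase, had 191 UMIs in vehicle and 270 in OLE, that is 219 and 378 CPM, the largest log2 ratio of the 24 at 0.78 (0.51 to 1.06). Ctss was at 642 in vehicle and 939 in OLE, a log2 ratio of 0.55 (0.38 to 0.71). Ctsz, a carboxypeptidase, was at 364 and 505, a log2 ratio of 0.47 (0.25 to 0.69). Of the 5 cathepsins counted here 3 passed the threshold. Ctsb at 0.29 (0.12 to 0.45) and Lgmn, the asparaginyl endopeptidase, at 0.21 (0.06 to 0.37) did not, though their intervals lay above 0. Cst3 (ENSMUSG00000027447), the inhibitor of these enzymes, was higher in OLE together with them, with 1728 and 2222 UMIs, with a log2 ratio of 0.65 (0.56 to 0.74). The study that made these data had already reported Cst3 as its top gene raised by OLE in microglia.

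Of the precursors, Grn, from which the granulins are cut, was at 186 in vehicle and 294 in OLE, a log2 ratio of 0.66 (0.36 to 0.96). Psap, the precursor of the saposin activators of sphingolipid hydrolysis, was at 563 and 679, a log2 ratio of 0.27 (0.09 to 0.45). Membrane proteins split: Lamp1, an abundant glycoprotein of the lysosomal membrane, was at 156 and 263 with a log2 ratio of 0.75 (0.43 to 1.08), and Cd68 had a log2 ratio of 0.70 (0.35 to 1.06). The cholesterol transporters Npc1 at 0.01 (-0.51 to 0.51) and Npc2 at -0.10 (-0.52 to 0.31) showed no difference detectable at this depth. The 5 glycosidases measured had a median of 0.13, with 2 past the threshold, and Man2b1, a lysosomal mannosidase, had 225 and 181 UMIs, with a log2 ratio of -0.03 (-0.32 to 0.26). Glb1, the acid beta-galactosidase, and Hexa, a subunit of beta-hexosaminidase, passed the threshold at 0.57 (0.11 to 1.03) and 0.35 (0.09 to 0.62). Glb1 overlaps Tmppe on the same strand, so its count is uncertain too. Tfeb itself was at 107 and 104, a log2 ratio of -0.05 (-0.51 to 0.41).

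**Figure D2:**
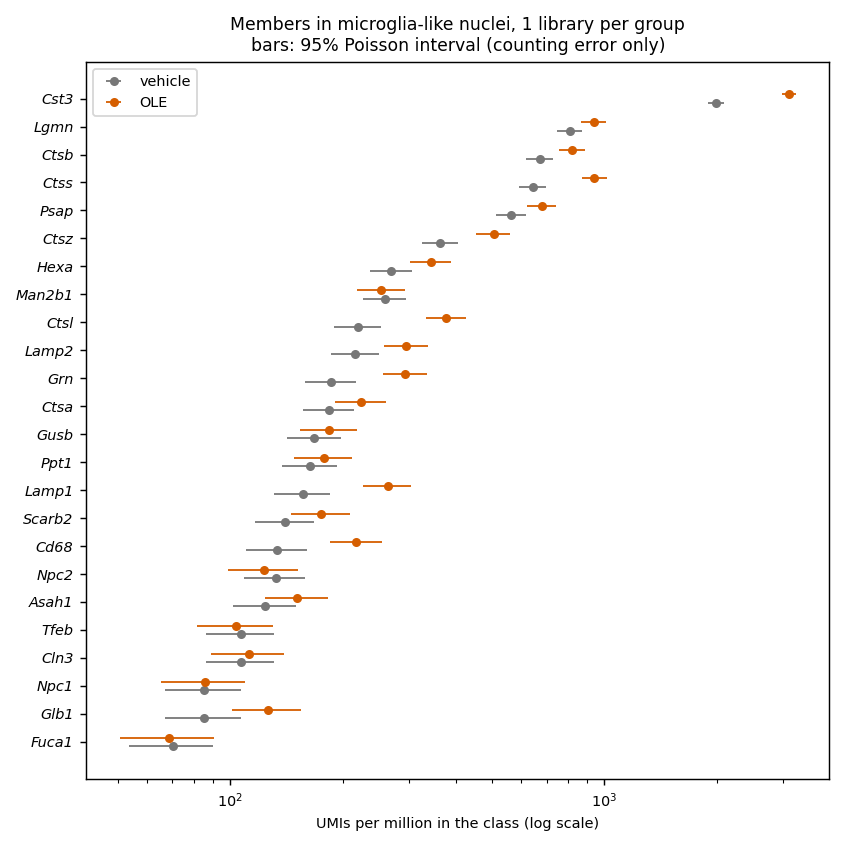
CPM (log axis) of 24 members in microglia-like nuclei, vehicle in grey and OLE in orange, with 95% Poisson intervals of 1 library each. The OLE point lies to the right of the vehicle point for 20 members, and the pairs of Cst3, Ctss, Ctsl, Lamp1 and Grn are among those whose intervals do not overlap.

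In the macroglia fewer members had enough UMIs than in microglia-like nuclei, and Lamp1 was higher past the threshold in each of the 3 classes. In astrocyte-like nuclei 10 members were measured, 9 of them above vehicle, with a median log2 ratio of 0.22 (all genes: -0.03), and 3 were higher past the threshold (11.0% of all genes) and 0 lower (11.9% of all genes). Cst3 had 604 UMIs in vehicle and 1517 in OLE, that is 789 and 1736 CPM and a log2 ratio of 1.14 (1.00 to 1.28), the highest among members with at least 100 UMIs in any of the 6 classes. Lamp1 was at 69.2 and 135, a log2 ratio of 0.96 (0.48 to 1.46). Ctsb was at 71.8 and 114, a log2 ratio of 0.67 (0.18 to 1.17). Ppt1, the palmitoyl-protein thioesterase, was the only member below vehicle, at -0.26 (-0.81 to 0.28). Summed markers of oligodendrocytes were at 421 and 294 CPM in these nuclei, a log2 ratio of -0.52 (-0.76 to -0.28), and those of vascular leptomeningeal cells at 316 and 184, a log2 ratio of -0.78 (-1.08 to -0.49), and their part in the members' values was not tested.

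In oligodendrocyte-like nuclei 21 members had a median log2 ratio of 0.23 (all genes: 0.02), with 9 higher past the threshold (12.8% of all genes) and 1 lower (6.22%). The 9 were mostly membrane and cholesterol transport genes, of which 5 of 7 passed. Lamp1 had 268 and 419 UMIs, or 123 and 234 CPM, and a log2 ratio of 0.93 (0.70 to 1.16). Npc1, which exports cholesterol from the lysosome, was at 93.0 and 165, a log2 ratio of 0.82 (0.56 to 1.09), and Npc2, its soluble partner, had 0.62 (0.16 to 1.09). Scarb2, the receptor that carries glucocerebrosidase to the lysosome, was at 106 and 156, a log2 ratio of 0.56 (0.30 to 0.81). Tpp1, a tripeptidyl peptidase, had 65 and 41 UMIs, with a log2 ratio of -0.38 (-0.98 to 0.21), an interval that holds 0. Among members with at least 100 UMIs in a class, Tpp1 was the only 1 lower past the threshold in any class. Tfeb was at 126 and 121, a log2 ratio of -0.06 (-0.32 to 0.20). The 11 endothelial markers summed to 20.6 CPM in vehicle and 49.7 in OLE in this class, a log2 ratio of 1.27 (0.74 to 1.82), with all 11 above 0 in both, and their part was not tested. In OPC-like nuclei 7 members were measured and all were above vehicle, with a median of 0.46 (all genes: -0.02). Of these, 5 were higher past the threshold (11.6% of all genes) and 0 lower (11.2%), led by Lamp1 with 45 and 80 UMIs, with a log2 ratio of 1.10 (0.55 to 1.66).

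UMIs of genes listed as neuronal were found in the glial nuclei, but their sum cannot separate RNA of neurons from that of the glia themselves. The summed level of 28 neuronal genes, all of which had UMIs, was 19132 CPM in vehicle and 18894 in OLE microglia-like nuclei, a log2 ratio of -0.02 (-0.05 to 0.01). In the other glia it was lower in the OLE library, with log2 ratios of -0.18 (-0.22 to -0.13) in astrocyte-like, -0.11 (-0.13 to -0.08) in oligodendrocyte-like and -0.09 (-0.13 to -0.05) in OPC-like nuclei. Without glial nuclei of more than 100 neuronal UMIs, 14 of 24 members were higher past the threshold in microglia-like nuclei, where 10.7% of all genes were. Markers of border macrophages, of which 5 vehicle and 8 OLE nuclei formed their own microglial subcluster, summed to 134 and 252 CPM in the microglia-like class, with 7 and 6 of 7 markers above 0. Their part in the result was not tested.

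**Figure D3:**
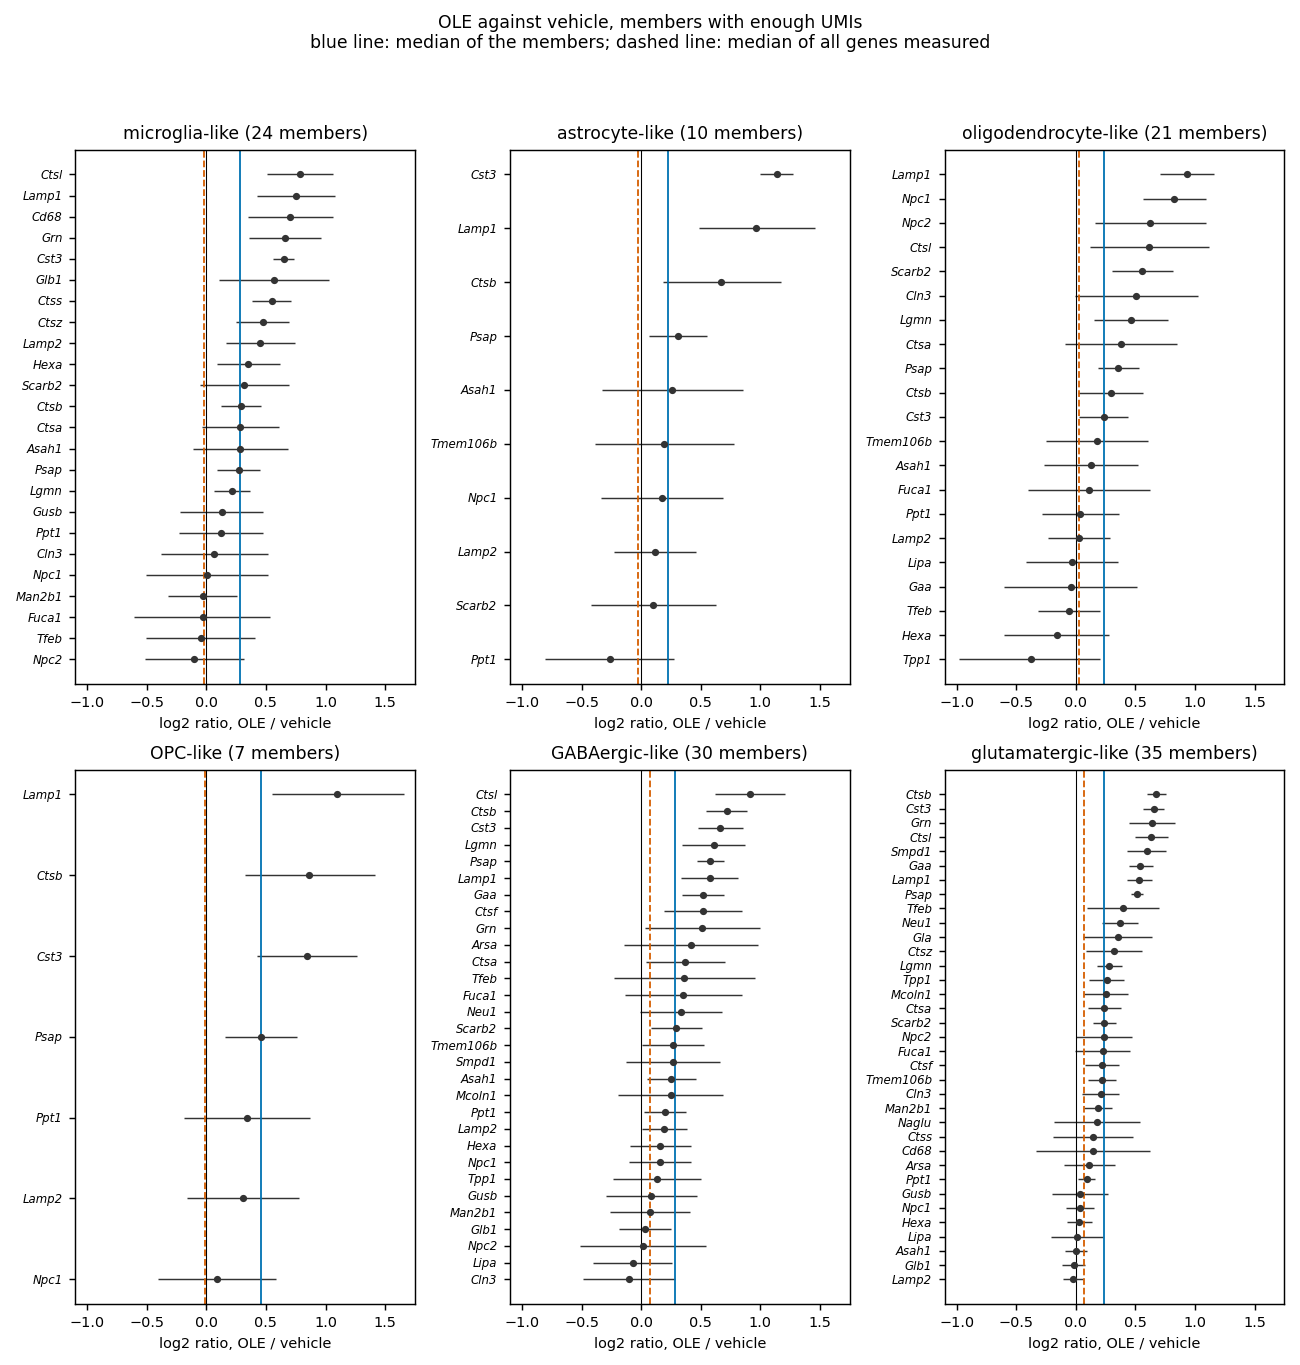
Log2 ratio OLE/vehicle of each member with at least 100 UMIs in the class, 1 panel per cell class, with 95% intervals of counting error; the solid blue line is the median of the members and the dashed line the median of all genes measured in the class. The blue line lies between 0.22 and 0.46 in the 6 panels and the dashed line between -0.03 and 0.08.

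Neurons gave the most UMIs and the narrowest intervals. In glutamatergic-like nuclei 35 members were measured, with a median log2 ratio of 0.23 (all 14144 genes: 0.07), and 33 were above vehicle, as were 66.7% of all genes. Higher past the threshold were 11 members (14.2% of all genes) and 0 were lower (1.87% of all genes). Ctsb had 2115 UMIs in vehicle and 3060 in OLE, or 47.3 and 75.4 CPM, the highest log2 ratio at 0.67 (0.59 to 0.75). Cst3 followed at 0.65 (0.57 to 0.74), Grn at 0.64 (0.44 to 0.83) and Ctsl at 0.63 (0.50 to 0.77). Psap, the most counted member in neurons, had 5863 and 7573 UMIs, or 131 and 187 CPM, and a log2 ratio of 0.51 (0.46 to 0.56). Smpd1, the acid sphingomyelinase, was at 12.1 and 18.2, a log2 ratio of 0.59 (0.43 to 0.76), and Gaa at 31.5 and 45.9, a log2 ratio of 0.54 (0.44 to 0.64). Lamp1 was at 28.7 and 41.6, a log2 ratio of 0.53 (0.43 to 0.64).

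Other members with as many UMIs stayed at the vehicle level in glutamatergic-like nuclei within narrow intervals. Lamp2, the close relative of Lamp1 in the lysosomal membrane, had 2465 and 2202 UMIs, with a log2 ratio of -0.02 (-0.11 to 0.06). Glb1 had -0.02 (-0.11 to 0.08). Asah1, the acid ceramidase, had 2079 and 1888 UMIs, with a log2 ratio of 0.0022 (-0.088 to 0.093), and Hexa had 0.03 (-0.08 to 0.13). Tfeb had few UMIs, 170 and 203, and a log2 ratio of 0.40 (0.10 to 0.70). Ctss had 149 UMIs in each library, a log2 ratio of 0.14 (-0.20 to 0.48), and the summed microglial markers were at 41.6 and 46.7 CPM in these nuclei. The same nuclei had 197.6 CPM of the 13 GABAergic markers summed in vehicle and 307 in OLE. Their log2 ratio, 0.64 (0.60 to 0.68), was about as high as those of the highest members, and their part in the members' ratios was not tested.

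The neuronal differences were spread over the subtypes. Across the 13 glutamatergic-like clusters, Ctsb, Ctsl, Lamp1, Psap, Gaa and Smpd1 were above vehicle in 13 and Cst3 and Grn in 12, with ranges of 0.35 to 1.09 for Ctsb and 0.09 to 0.66 for Psap. Lamp2, Hexa and Asah1 were above vehicle in 7 of the 13 and Glb1 in 6. These clusters share their libraries and are not replicates. In GABAergic-like nuclei 30 members had a median of 0.28 (all genes: 0.08), with 14 higher past the threshold (17.5% of all genes) and 0 lower (2.56%). Ctsl had 155 and 266 UMIs, or 22.1 and 41.6 CPM, and the highest log2 ratio at 0.91 (0.62 to 1.21), followed by Ctsb at 0.72 (0.55 to 0.89) and Cst3 at 0.66 (0.47 to 0.85). Psap was at 164 and 246, a log2 ratio of 0.58 (0.47 to 0.69), and Lgmn at 29.3 and 44.6, a log2 ratio of 0.61 (0.34 to 0.87). The lowest members with at least 200 UMIs were Cln3, a membrane protein lost in juvenile Batten disease, at -0.10 (-0.49 to 0.28) and Lipa at -0.07 (-0.40 to 0.26).

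Over the 6 classes, Lamp1 was higher past the threshold in all 6, Cst3 in 5 of 6 and Psap and Ctsb in 4 of 6. Ctsl passed in all 4 classes where it was measured and Grn in all 3. Npc1, in contrast, was measured in 6 classes and passed only in oligodendrocyte-like nuclei, and Lamp2, also measured in 6, only in microglia-like nuclei. Whether a ratio differed between classes was not tested.

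With the stricter limit of 1.5-fold, 5 microglial members remained higher in OLE (2.14% of all genes) and 0 lower (1.42%), namely Ctsl, Lamp1, Cd68, Grn and Cst3. The 3 astrocyte members all passed it (2.64%), with 0 lower (2.1%). Oligodendrocyte-like nuclei had 4 higher and 0 lower (2.98% and 0.801%), and OPC-like nuclei 3 higher and 0 lower (2.71% and 2.13%). In neurons 4 GABAergic members were higher (4.82%) and 0 lower (0.342%), and 5 glutamatergic members were higher (3.66%) and 0 lower (0.219%).

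In the unnamed nuclei the members lay near the median of all genes. With 35 members measured, the median log2 ratio was 0.06 (all genes: 0.04), and 1 member was higher past the threshold (8.96% of all genes) and 0 lower (3.62%). At 1.5-fold there were 0 either way (1.45% and 0.485% of all genes). Cst3 had 4443 and 6566 UMIs there, at 512 and 535 CPM, a log2 ratio of 0.07 (0.01 to 0.12). Ctsb was at 208 and 216. The clusters that stood apart by library had like levels of all members together, 2620 CPM in the 2240 vehicle nuclei of the first and 2691 in the 1727 OLE nuclei of the second. A cluster of 65 vehicle and 77 OLE nuclei had 1033 and 1309, with Cst3 at 56.7 and 73.8 and Psap at 164 and 232. The remaining cluster, of 357 and 447 nuclei, had 4348 and 4391, with Cst3 at 1797 and 1571 and Psap at 507 and 665.

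Gene length moved with the ratio in every class. Among all genes of glutamatergic-like nuclei the median log2 ratio was 0.20 under 10 kb, 0.10 from 10 to 30 kb, 0.03 from 30 to 100 kb and -0.01 over 100 kb, and the 37 members were all shorter than 100 kb, from 1.94 to 73.8 kb. In that class 4 of 10 members under 10 kb were higher past the threshold (30.5% of all genes of that length), 6 of 17 from 10 to 30 kb (12.7%) and 1 of 8 from 30 to 100 kb (8.13%). In GABAergic-like nuclei 6 of 8 under 10 kb passed (45.6%), 6 of 14 from 10 to 30 kb (22.04%) and 2 of 8 above (8.87%). With each ratio set against the median of genes of like length, a step chosen after seeing the data, the members' median came to 0.12 for glutamatergic-like, 0.13 for GABAergic-like, 0.11 in oligodendrocyte-like, 0.19 in astrocyte-like, 0.33 in OPC-like and 0.29 in microglia-like nuclei. Counts of members then higher past the threshold were 9, 7, 7, 3, 5 and 11, in the same order, beside 8.60%, 8.91%, 9.21%, 11.0%, 11.8% and 10.1% of all genes centred in the same way.

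**Figure D4:**
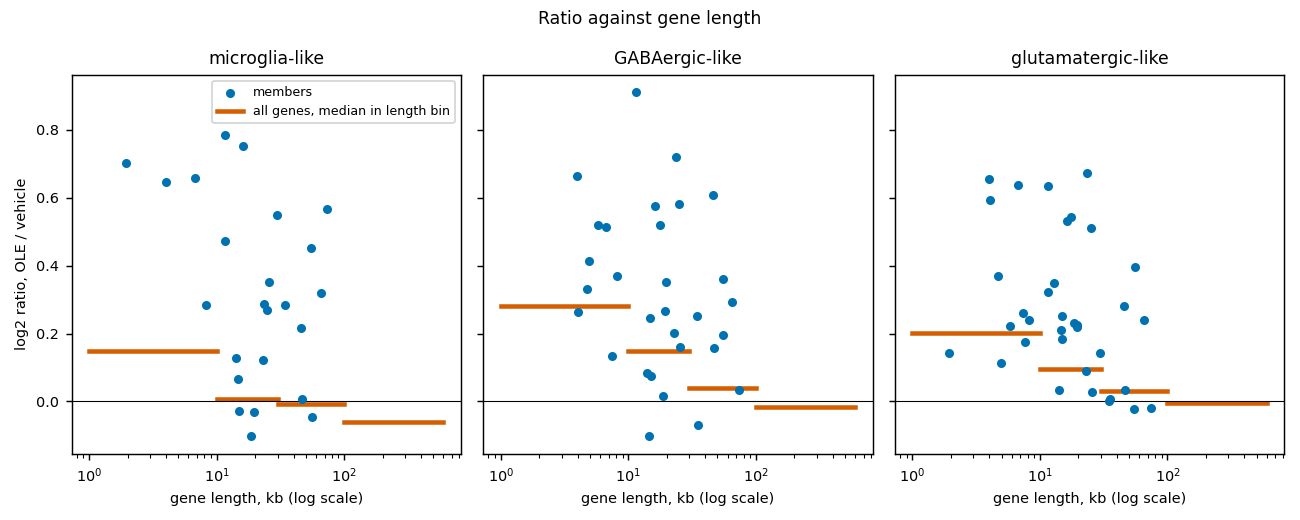
Log2 ratio OLE/vehicle of each member (points) against its gene length in kb (log axis) in microglia-like, GABAergic-like and glutamatergic-like nuclei; orange lines are the medians of all measured genes under 10 kb, from 10 to 30, from 30 to 100 and over 100 kb. The lines step down with length, from 0.28 to -0.02 in GABAergic-like nuclei, and most microglial points lie above them.

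Housekeeping genes also stood above the median of all genes. Of 30 genes translated at the endoplasmic reticulum, 24 were higher past the threshold in glutamatergic-like nuclei with a median of 0.43, above the members, and in microglia-like nuclei 4 of 19 with a median of 0.20, below them. Genes translated in the cytosol had medians of 0.32 and 0.21 in these classes, with 14 of 29 and 5 of 17 higher. Among them the polyubiquitin gene Ubb had a log2 ratio of 0.94 in glutamatergic-like and 0.68 in microglia-like nuclei. In GABAergic-like nuclei genes translated at the endoplasmic reticulum and in the cytosol had medians of 0.55 and 0.42. Higher were 19 of 28 in each list, beside a median of 0.28 for the members. Oligodendrocyte-like nuclei had 0.32 and 0.35, with 12 of 24 and 13 of 25 higher, beside 0.23. Astrocyte-like nuclei had 0.22 and 0.30, with 5 of 14 and 6 of 13 higher, beside 0.22. OPC-like nuclei had 0.35 and 0.09, with 8 of 13 and 2 of 7 higher, beside 0.46. The part of length or of a shift shared by short, highly expressed genes in the members' values was not tested.

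Other lists of the lysosomal system varied by class. Of 11 other lysosomal enzymes measured in microglia-like nuclei 1 was higher past the threshold and 1 lower, with a median of 0.01, and the highest, Ctsh, a cysteine aminopeptidase, had 0.45. In glutamatergic-like nuclei 3 of 29 were higher, with a median of 0.12, and in astrocyte-like nuclei 2 of 4, with a median of 0.30. Subunits of the V-ATPase, the proton pump that acidifies lysosomes, had a median of 0.01 over 11 in microglia-like nuclei with 0 past the threshold, and 0.15 over 17 in glutamatergic-like nuclei with 6 higher, where Atp6ap2 had 0.62 and Atp6ap1 0.55. In GABAergic-like nuclei 8 of 17 subunits were higher, with a median of 0.15, and in oligodendrocyte-like nuclei 5 of 15, with a median of 0.22. Sorting receptors, which carry enzymes to the lysosome, had medians of -0.19 over 6 and 0.05 over 13, and Lrp1 had -0.26 in microglia-like nuclei. The highest of the 6 had 0.51, with 1 higher past the threshold and 0 lower. Genes of lysosome regulation, which act around mTORC1 and the TFEB family, had medians of -0.19 over 8 and 0.01 over 17, with Fnip1, a partner of folliculin, at -0.36 in microglia-like nuclei. Members with CACGTG near the start had a median of 0.43 over 6 and those without 0.32 over 15 in microglia-like nuclei, and 0.25 over 12 and 0.23 over 20 in glutamatergic-like nuclei. The medians were 0.48 over 6 and 0.075 over 12 in oligodendrocyte-like, and 0.47 over 10 and 0.26 over 17 in GABAergic-like nuclei. The difference between members with and without it was not tested.

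Microglial states differed in which cathepsins they held. The class was divided into 165 vehicle and 136 OLE homeostatic-like nuclei and 164 vehicle and 124 OLE DAM-like nuclei, a DAM-like share of 49.8% (44.3 to 55.4, exact binomial) and 47.7% (41.5 to 54.0). Of 24 members, 6 were higher past the threshold in DAM-like than in homeostatic-like nuclei in both libraries (11.6% of all genes) and 2 lower (13.1%). Because the states were formed from these same nuclei, no test between them is given. Ctsl was at 124 CPM in homeostatic-like and 316 in DAM-like vehicle nuclei, and at 224 and 531 in OLE nuclei, with log2 ratios of 1.35 (0.88 to 1.83) and 1.24 (0.85 to 1.65). Ctsb was at 424 and 918 in vehicle and 461 and 1101 in OLE, with log2 ratios of 1.12 and 1.26. These were the 2 members at least 2-fold higher in both libraries (2.52% of all genes), and 0 were 2-fold lower (1.92%). Ctsz had log2 ratios of 0.53 and 1.21, and Cd68, Gusb and Npc2 between 0.49 and 0.84. Lgmn was lower in DAM-like nuclei, at 1031 in homeostatic-like and 585 in DAM-like vehicle nuclei and at 1233 and 673 in OLE nuclei. Cst3, at 2569 and 1421 in vehicle and 3722 and 2667 in OLE, was also lower in DAM-like nuclei, with log2 ratios of -0.85 (-0.9999 to -0.71) and -0.48 (-0.60 to -0.36). Ctss was lower in DAM-like vehicle nuclei, at 508 against 787, but at a like level in OLE, 929 against 969, with log2 ratios of -0.63 (-0.89 to -0.38) and -0.06 (-0.29 to 0.16).

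The difference between treatments was present in both states for the members as a set, but not for each of them. In homeostatic-like nuclei 22 of 24 members were above vehicle, with a median of 0.33 (all genes: -0.00074), and 12 were higher past the threshold (16.4% of all genes) and 1 lower (18.2%). In DAM-like nuclei 18 of 24 were above vehicle, with a median of 0.20 (all genes: -0.03), and 10 were higher (14.8%) and 2 lower (17.4%). Ctsl had log2 ratios of 0.85 and 0.75 in the states, Lamp1 0.69 and 0.64, Grn 0.71 and 0.61, and Cst3 0.53 (0.42 to 0.65) and 0.91 (0.76 to 1.06). Ctss had 0.30 (0.08 to 0.52) in homeostatic-like and 0.87 (0.62 to 1.13) in DAM-like nuclei. Glb1 had 0.96 in homeostatic-like and 0.20 in DAM-like nuclei, on 28 and 42 UMIs in the former. Ctsz had 0.02 (-0.37 to 0.40) in homeostatic-like and 0.70 (0.42 to 0.98) in DAM-like nuclei. Hexa had 0.02 and 0.52 in the same order, and Scarb2 0.68 and -0.04. The members lower past the threshold were Npc1 at -0.37 in homeostatic-like, and Fuca1 at -0.43 and Tfeb at -0.45 in DAM-like nuclei.

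**Figure D5:**
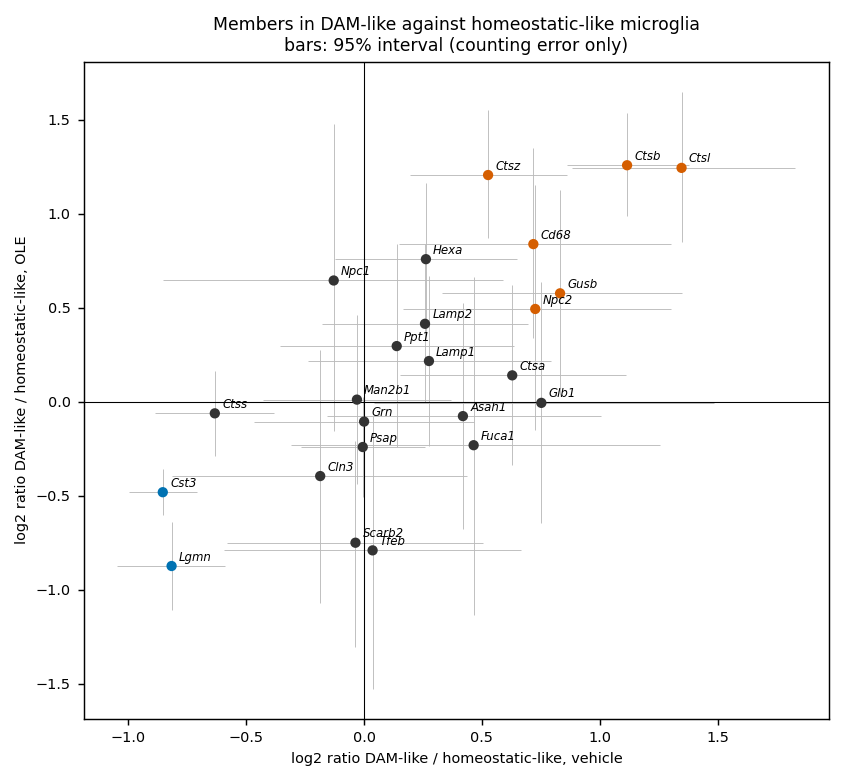
Log2 ratio DAM-like/homeostatic-like of 24 members in the vehicle library (horizontal axis) and the OLE library (vertical axis), with 95% intervals of counting error. The 6 orange members at the upper right were higher past the threshold in DAM-like nuclei in both libraries, and the 2 blue ones, Cst3 and Lgmn, lower past the threshold.

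The share of microglia-like nuclei with a UMI of Cst3, Ctss or Lamp1 was higher in the OLE library after thinning to a common depth of 1000 UMIs. In each library 2 microglia-like nuclei were too shallow to keep. These shares are counted from the same UMIs as the ratios above, so they are not separate evidence. Cst3 was found in 70.2% (64.9 to 75.1) of 332 vehicle and 85.0% (80.1 to 89.0) of 266 OLE microglia-like nuclei, and without thinning in 88.9% and 96.6%. In astrocyte-like nuclei the thinned shares were 52.5% (43.2 to 61.7) and 74.3% (66.1 to 81.4), and in glutamatergic-like nuclei 5.15% and 6.13%. Before thinning the median depth was 2438.5 and 2348 UMIs in microglia-like and 21099 and 19438 in glutamatergic-like nuclei. Ctss was found in 42.2% (36.8 to 47.7) and 56.8% (50.6 to 62.8) of microglia-like nuclei and in 0.525% and 0.38% of glutamatergic-like nuclei, a class that should lack it. Lamp1 was found in 12.3% (9.01 to 16.4) and 24.1% (19.1 to 29.7) of microglia-like nuclei and in 2.79% and 4.56% of glutamatergic-like nuclei. Ctsd was found in 1 of 332 and 5 of 266 microglia-like nuclei. For the intervals, nuclei of a pool of mice were treated as independent, which covers counting error only.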

How the data were processed

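Nuclei from the pooled entorhinal cortex of 5 mice per treatment were sequenced with 10X 3′ chemistry. The deposited values are UMI counts per gene and nucleus, made by the authors with Cell Ranger (3.0.1 per the labels, 3.0.2 in the matrix header) against a pre-mRNA reference of mm10. The labels also name Seurat 4.0.4. Scrublet (scanpy 1.11.5) marked 0.119% and 0.113% of nuclei by its own threshold and so had not worked, and the nuclei with the top 5% of its scores were removed, leaving 6373 vehicle and 5862 OLE nuclei. Clusters (Seurat 5.3.0, sctransform 0.4.2, 3000 variable genes, 30 components, resolution 0.4, members left out) were named from fixed markers by a rule set after the clusters were seen.

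UMIs were summed per library and class. Genes needed 100 UMIs, and a log2 difference of 0.322 was called. Intervals are exact Poisson or Clopper-Pearson. The ratio step was tested on simulated data. Named members were the 3 highest and 3 lowest ratios per class with 200 UMIs, and those fixed for their role, and others named were chosen after their values were seen. Members and lists were chosen with earlier results of these data known, and centring on gene length was added after seeing the data.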

Additional observations from a re-analysis of the deposited data

How the results depend on the processing

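The median log2 ratio of the members kept its sign under every alternative run, from 0.27 to 0.44 in microglia-like, 0.17 to 0.32 in astrocyte-like, 0.11 to 0.29 in oligodendrocyte-like, 0.33 to 0.47 in OPC-like, 0.12 to 0.33 for GABAergic-like and 0.12 to 0.32 for glutamatergic-like nuclei. Counts of members past the fold moved. At 1.5-fold, 5 microglia-like, 4 oligodendrocyte-like, 3 OPC-like, 4 GABAergic-like and 5 glutamatergic-like members were higher and 0 oligodendrocyte-like lower. In what follows the share of all genes called under the same setting stands in brackets. With a minimum of 50 UMIs, 9 astrocyte-like (16.4%) and 8 OPC-like members (16.6%) were higher, and 1 microglia-like (13.2%), 3 oligodendrocyte-like (8.42%) and 1 OPC-like (14.8%) lower. With no minimum, 16 astrocyte-like (29.0%) and 19 OPC-like (27.3%) were higher, and 2 microglia-like (21.7%), 5 astrocyte-like (23.4%), 5 oligodendrocyte-like (17.3%), 2 OPC-like (24.4%) and 1 GABAergic-like (13.3%) lower. Thinned to 1000 UMIs, 5 astrocyte-like (24.9%) and 18 glutamatergic-like (26.3%) were higher, and 1 microglia-like (19.5%), 2 astrocyte-like (27.1%), 2 oligodendrocyte-like (16.4%), 1 OPC-like (26.2%), 4 GABAergic-like (25.3%) and 3 glutamatergic-like (15.7%) lower, and Ctsb in OPC-like (-1.06), Grn and Tfeb in GABAergic-like nuclei (-0.064 each) changed sign. With doublets kept, 7 astrocyte-like members (17.6%) were higher. With nuclei weighted equally, 9 GABAergic-like (15.0%) were higher and 0 oligodendrocyte-like (7.40%) lower, and without nuclei of 5% or more mitochondrial UMIs 0 oligodendrocyte-like (6.31%) were lower. Centred on genes of like length, 7 GABAergic-like (8.91%) were higher and 1 astrocyte-like (10.6%) lower. Without glial nuclei over 100 neuronal UMIs, 1 of 2 OPC-like members left (12.9%) was higher. The highest class differed between libraries for 5 members with doublets kept and for 5 when thinned. At 2-fold, 2 members were higher and 0 lower in DAM-like microglia. The causes of these moves were not tested. Of 549 alternative values for 52 ratios of named members, 509 were counted as moved by less than their interval and 37 as moved by more. The other 3 changed sign from a ratio that was past the threshold in the main run. Sign changes of smaller ratios were not counted separately and are among the 509 and 37. No paired analysis was possible because each treatment has 1 library.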
